A study of Mus musculus with 6 samples.

Results

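Mature oligodendrocyte myelin genes were followed in the hippocampus (HIPP) of saline-treated and methamphetamine (MA)-treated mice. The 9 genes, Mbp, Mobp, Mal, Cldn11, Cnp, Mag, Mog, Ermn and Opalin, were taken by gene symbol from the 16060 rows of the deposited table, and each matched 1 row. All 9 passed the filter on low values that left 13321 genes for testing, so no member was lost. RNA sequencing gave 3 libraries of control and 3 of MA-treated mice of the C57BL/6 strain. The labels do not say whether a library is 1 mouse or a pool. The mice were adult males. Control mice were given saline and MA-treated mice were given intraperitoneal MA, at 5 mg/kg in week 1, 10 mg/kg in week 2 and 15 mg/kg in week 3, with behavioral tests on day 22. The labels name no transgene and no other agent for either group. The model is one of whole, dissected tissue, in which fewer cells of a type and less RNA per cell cannot be told apart.

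Oligodendrocytes wrap axons of the central nervous system in myelin, a stack of membrane whose cytoplasmic faces are sealed together. The sealed part is called compact myelin, and channels of cytoplasm remain along its edges and next to the axon. Oligodendrocyte precursors switch these genes on as they differentiate, under transcription factors such as Sox10 and Myrf. In the hippocampus, myelin is dense in the fibre tracts and sparse in the neuronal cell layers.

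Gene levels were deposited per gene length (RPKM) in log form, taken as log2 of the level plus 1. On this scale, fold changes give the MA mean minus the control mean. All 6 libraries shared the same highest value and nearly the same sorted values, so their distributions had been equalized by the time of deposit. The depth of the libraries is unknown. MA replicate 3 stood apart from the other libraries across the tested genes. Its mean Pearson correlation with the other MA libraries was 0.978, against 0.984 and 0.985 for MA replicates 1 and 2 and 0.991 to 0.993 for the control libraries. The comparisons of the members and of the related myelin lists are given with and without it. The neuronal markers Snap25, Camk2a and Slc17a7 had log2 values between 8.92 and 10.22 in every library, and were chosen for naming after their values were seen. Schwann cell markers of peripheral myelin were near the floor, with log2 values of at most 0.694 in any library.

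No difference between control and MA-treated mice passed the test in any member. At an adjusted p under 0.05 (limma with Benjamini-Hochberg adjustment over all tested genes), 0 of the 9 genes were called, where 0.263% of all tested genes were called. An unadjusted p under 0.05 was also reached by 0 of 9, against 10.4% of all tested genes. The groups overlapped in all 9 members, while 17.5% of all tested genes had groups that did not overlap. The mean of the MA libraries was the lower in 8 of the 9, against 52.7% of all tested genes, with Mbp as the exception. The median log2 fold change of the members was -0.20, and that of all tested genes was -0.010. MA replicate 2 lay below and MA replicate 3 above the control mean in every member but Cnp and Ermn, where both lay below it, and MA replicates 2 and 3 were further apart than the group means in all 9.

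The 9 genes lie on 8 chromosomes. In GENCODE M21 on GRCm38, given for location only because the submitters' processing notes name mm8 and mm9, Mobp (ENSMUSG00000032517) spans 120149707 to 120181484 on chromosome 9. Mal (ENSMUSG00000027375) lies on chromosome 2 from 127633226 to 127656695, and Ermn (ENSMUSG00000026830) on the same chromosome from 58045113 to 58052864. Cldn11 (ENSMUSG00000037625) lies on chromosome 3 from 31149920 to 31164324. Cnp (ENSMUSG00000006782) was located on chromosome 11 from 100574904 to 100591729, and Mag (ENSMUSG00000036634) on chromosome 7 from 30899176 to 30914873. Mog (ENSMUSG00000076439) lies on chromosome 17 from 37010743 to 37023398, and Opalin (ENSMUSG00000050121) on chromosome 19 from 41061710 to 41077113. Exons of Cnp, Ermn and Mobp overlap exons of another annotated gene, by 154 bases with Dnajc7, 237 bases with Galnt5 and 79 bases with Gm38642. Whether the counting used strand is not given in the sources used here, so reads in these stretches are uncertain.

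Because most members moved together between libraries, the bases before their start sites were searched for cores bound by the transcription factors named above. RefSeq promoter windows on GRCm38.p6 were used for 8 of the 9 genes. Mbp was left out of this search by choice, so nothing is said here of its promoter. Both strands of the 250 bases before each start were searched for ACAAAG, a core bound by Sox proteins, and for CTGGCAC, a core of the Myrf motif. The letters do not overlap each other. Some genes have more than 1 window, and the 8 genes have 10. ACAAAG stood before Cnp, Mag, Mobp and Opalin, in 5 of the 10 windows, and 16.5% of all 32851 windows hold it. CTGGCAC stood before Cnp and Mag, in 3 of the 10 windows, and 4.19% of all windows hold it. The windows of Mag overlap and hold the same Sox and Myrf cores, so each core of Mag is counted more than once among the windows. By gene the counts were 4 of 8 for ACAAAG and 2 of 8 for CTGGCAC. Neither core was found before Mal, Cldn11, Mog or Ermn. The palindromic E-box CAGCTG and the TATA box TATAAA were found in 0 of the 10 windows of the 8 genes, against 13.0% and 12.4% of all windows. A match is a description of these letters and says nothing of binding. Shown are the windows of Opalin and Mobp, which varied most and least between libraries among the 8, of Cnp, which holds both cores, and of Mog, which followed Opalin closely and holds neither. They run 5′ to 3′ on the gene's strand, with the matches in capitals, and stop before the outermost annotated start. The Opalin window is chr19:41077114-41077363 (minus strand), the Mobp window chr9:120149492-120149706 (plus strand), the Cnp window chr11:100574689-100574903 (plus strand) and the Mog window chr17:37023399-37023648 (minus strand).
Opalin: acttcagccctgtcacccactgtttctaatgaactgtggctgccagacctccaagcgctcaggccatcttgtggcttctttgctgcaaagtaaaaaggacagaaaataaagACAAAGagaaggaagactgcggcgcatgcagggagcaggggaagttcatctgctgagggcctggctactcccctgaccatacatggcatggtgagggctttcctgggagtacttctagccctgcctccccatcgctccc
Mobp: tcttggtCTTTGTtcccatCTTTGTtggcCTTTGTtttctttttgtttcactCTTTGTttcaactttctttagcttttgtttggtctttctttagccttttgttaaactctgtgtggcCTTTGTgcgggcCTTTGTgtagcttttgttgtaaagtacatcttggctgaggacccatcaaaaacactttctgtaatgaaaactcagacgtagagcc
Cnp: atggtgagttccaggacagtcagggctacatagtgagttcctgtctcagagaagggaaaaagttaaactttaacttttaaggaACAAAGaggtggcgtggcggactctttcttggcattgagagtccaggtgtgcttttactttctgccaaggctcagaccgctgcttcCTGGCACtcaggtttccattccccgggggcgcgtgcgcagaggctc
Mog: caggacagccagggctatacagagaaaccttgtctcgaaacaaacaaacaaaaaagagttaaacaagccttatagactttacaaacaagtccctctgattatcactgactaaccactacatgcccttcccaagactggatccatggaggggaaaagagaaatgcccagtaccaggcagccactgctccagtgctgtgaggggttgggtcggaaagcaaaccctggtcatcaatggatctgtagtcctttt
The Mobp stretch holds 6 matches to the Sox core, whereas the Opalin stretch holds 1.

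Among genes of compact myelin, Mbp was the highest member in every library. Mbp (ENSMUSG00000041607) lies on GRCm38 chromosome 18 from 82475146 to 82585637, and its protein seals the cytoplasmic faces of the membrane. Mbp was 10.87, 10.84 and 10.80 in Control replicates 1, 2 and 3, and 11.03, 10.77 and 11.03 in MA replicates 1, 2 and 3. MA replicates 1 and 3 were above all control libraries and MA replicate 2 was below them. The fold change of Mbp was 0.11 on the log2 scale (SE 0.09), with a 95% interval from -0.10 to 0.32 and a limma adjusted p = 0.740. Mbp stood between rank 15 and rank 21 of all genes in each library. At these ranks the 6 libraries share exactly the same ladder of values, in steps of 0.029 to 0.067, so that its value is set by its rank, and MA replicates 1 and 3 carry the same number. Mobp, a small basic protein of the same faces, was 8.91, 8.97 and 8.71 in the control libraries and 8.74, 8.74 and 9.03 in the MA libraries. The groups overlapped, with a log2 fold change of -0.03 ± 0.11 (SE), with a limma adjusted p = 0.958 and a 95% interval from -0.29 to 0.23.

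Mal, a proteolipid of myelin membrane, was 6.37, 6.60 and 6.20 in the control libraries and 6.23, 5.84 and 6.48 in the MA libraries. Cldn11, the claudin that forms the tight junctions of central myelin, was 6.85, 7.08 and 6.58 in the control libraries and 6.60, 6.25 and 7.08 in the MA libraries. For both genes MA replicate 2 was the lowest of the 6 libraries, and MA replicate 3 was above Control replicates 1 and 3. The log2 fold change was -0.20 ± 0.18 (SE) for Mal and -0.19 ± 0.22 for Cldn11, at a limma adjusted p = 0.744 and 0.822. The 95% intervals ran from -0.62 to 0.21 and from -0.69 to 0.31.

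Cnp, Mag and Mog belong to non-compact myelin or to its surfaces. Cnp, a cyclic nucleotide phosphodiesterase of the cytoplasmic channels, was 7.08, 7.35 and 7.03 in the control libraries and 6.87, 6.35 and 7.07 in the MA libraries. MA replicates 1 and 2 were below all control libraries, and MA replicate 3 lay between them. Cnp had the smallest p of the members, and its log2 fold change was -0.39 ± 0.18 (SE), with a 95% interval from -0.82 to 0.04 and a limma adjusted p = 0.521. Mag, the adhesion protein that faces the axon, was 6.06, 6.31 and 5.88 in the control libraries and 6.22, 5.70 and 6.17 in the MA libraries. Only MA replicate 2 left the range of the control libraries, and the log2 fold change was -0.05 ± 0.17 (SE), with a 95% interval from -0.44 to 0.34 and a limma adjusted p = 0.945. Mog, an immunoglobulin-like protein of the outermost layer, was 5.32, 5.63 and 5.28 in the control libraries and 5.13, 4.64 and 5.50 in the MA libraries. MA replicate 3 was above 2 of the control libraries, and the other MA libraries were below all 3. The log2 fold change of Mog was -0.32 ± 0.21 (SE), with a 95% interval from -0.82 to 0.17 and a limma adjusted p = 0.662.

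Ermn and Opalin, proteins that appear late in oligodendrocyte differentiation, had the lowest levels. Ermn, which binds the actin cytoskeleton, was 3.96, 3.96 and 3.78 in the control libraries and 3.59, 3.18 and 3.89 in the MA libraries. Its log2 fold change was -0.34 ± 0.18 (SE), with a 95% interval from -0.75 to 0.07 and a limma adjusted p = 0.563. Opalin, a transmembrane glycoprotein, was 3.39, 3.69 and 3.18 in the control libraries and 2.91, 2.09 and 3.50 in the MA libraries. In both genes MA replicates 1 and 2 were below every control library and MA replicate 3 was inside the control range. Opalin had the largest log2 fold change in size of the 9 members, at -0.59 ± 0.33 (SE), with a 95% interval from -1.36 to 0.18 and a limma adjusted p = 0.599. The exact permutation test of 3 libraries against 3, whose smallest two-sided p is 0.1, gave p between 0.2 and 1 for the 9 members.

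**Figure D1:**
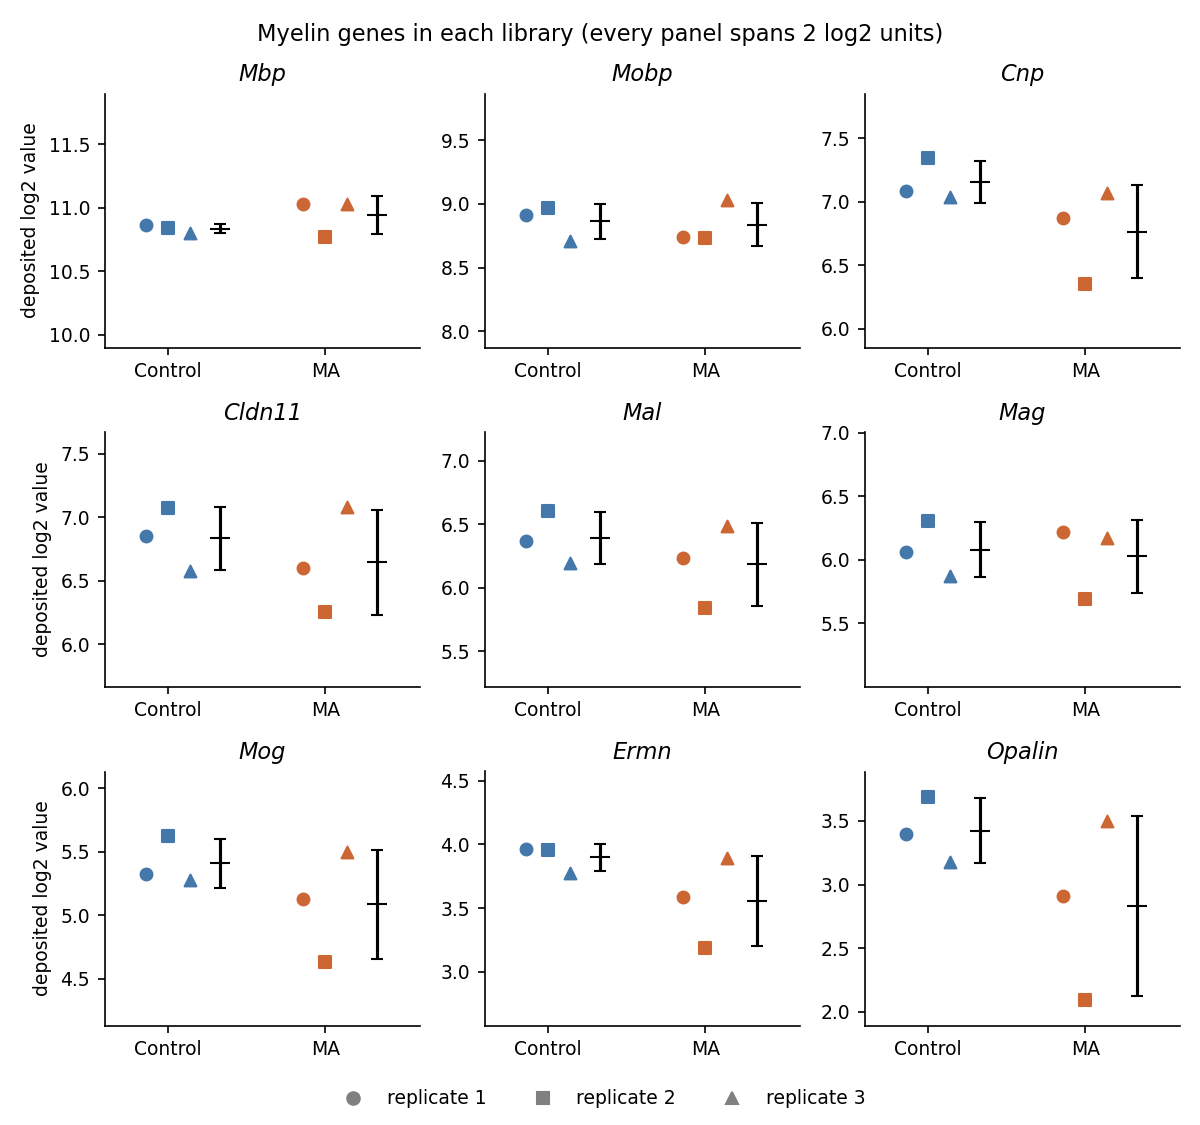
Deposited log2 value (y axis) of each of the 9 myelin genes in the 3 control (blue) and 3 MA (orange) libraries, with the marker shape giving the replicate number and the black bar the mean ± SD of 3 libraries. MA replicate 2 (square) is the lowest point in 8 of the 9 panels, Mobp being the exception, and the groups overlap in all 9.

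**Figure D2:**
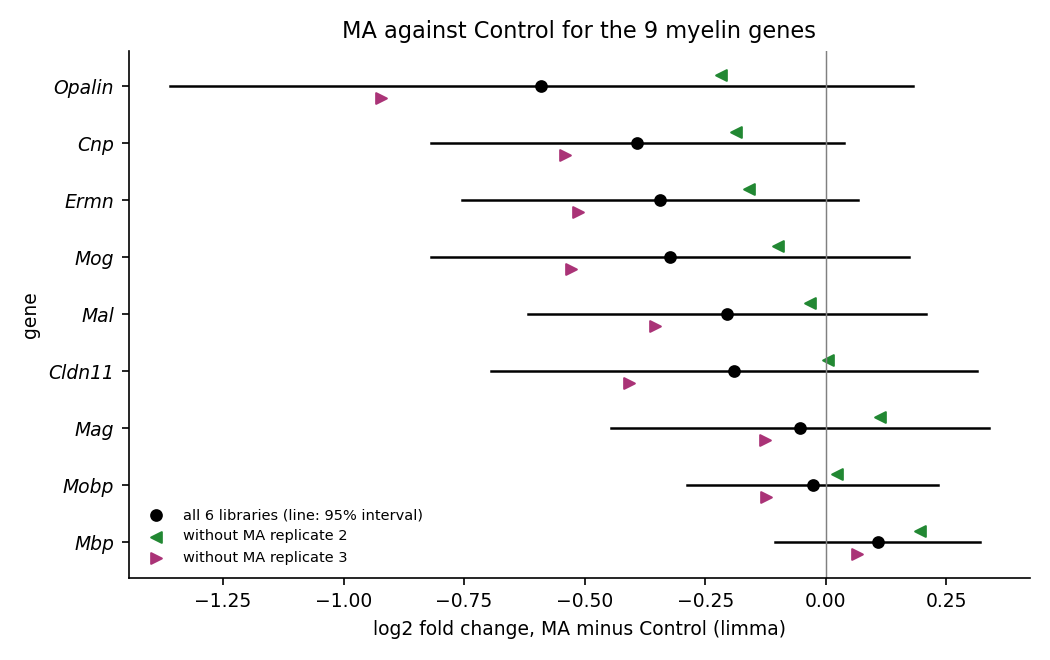
Log2 fold change of MA minus control (x axis) for each gene, with its 95% limma interval from all 6 libraries (black) and the estimates without MA replicate 2 (green) or MA replicate 3 (purple). All 9 intervals include 0, and the estimates without MA replicate 2 lie to the right of those without MA replicate 3.

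On the per-length scale the order of levels was Mbp, Mobp, Cnp, Cldn11, Mal, Mag, Mog, Ermn and Opalin. Averaged over the 3 control libraries after back-transformation, the level was 1826 for Mbp, 466 for Mobp, 114 for Cldn11 and 9.83 for Opalin. Cnp and Cldn11 differed by 0.22 in mean log2 value, less than the within-group SD of 0.34, and Mal and Mag by 0.23 against an SD of 0.27. These neighbors were not separated beyond this spread, a measure that leaves out that the genes share libraries. Mal was above Mag in 6 of 6 libraries, and Cnp above Cldn11 in 5 of 6. The other 6 neighboring pairs differed by more than the spread. The largest steps were those from Mbp to Mobp, of 2.04, and from Mobp to Cnp, of 1.89.

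The members varied together from library to library. Each value was centered on the gene's mean over the 6 libraries. The mean of the 9 centered values was -0.48 in MA replicate 2, where all 9 genes were below their own mean, and 0.21 in MA replicate 3, where all 9 were above it. Control replicate 2 was the highest library at 0.28, and Control replicate 1, Control replicate 3 and MA replicate 1 were at 0.10, -0.05 and -0.06. MA replicate 2 held the lowest value in 8 of 9 members, against 15.7% of all tested genes, and it was below all 3 control libraries in 8 of 9 members, against 32.4% of all tested genes. MA replicate 3 was below all 3 control libraries in 0 of 9 members, although 38.3% of all tested genes were below them in that library. Within the MA group, back-transformed Opalin was 3.16 times as high in MA replicate 3 as in MA replicate 2. The same ratio was 1.85 for Mog, 1.79 for Cldn11, 1.71 for Ermn, 1.64 for Cnp and 1.57 for Mal. It was smaller for Mag and Mobp, at 1.40 and 1.23, and smallest for Mbp.

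**Figure D3:**
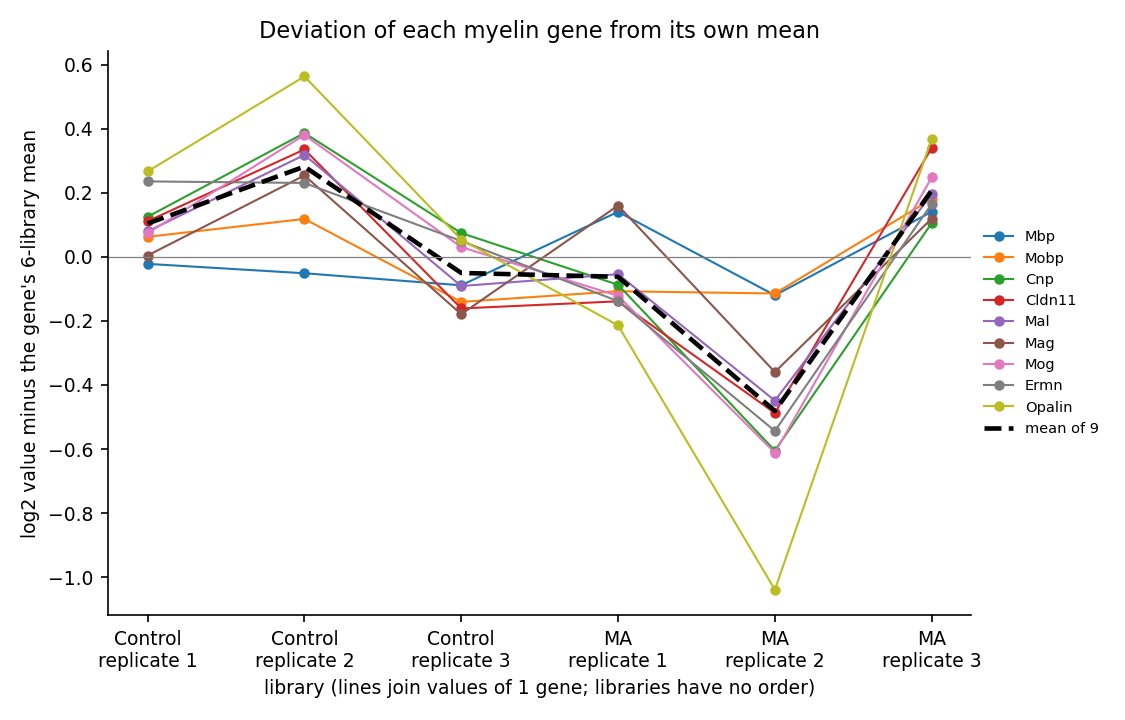
Deviation of each of the 9 genes from its own mean over 6 libraries on the log2 scale (y axis) in each library (x axis), with the mean of the 9 as a dashed line and lines that only join values of 1 gene. Most lines dip together in MA replicate 2, Opalin the most, whereas Mbp and Mobp vary least.

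Pairs of members correlated positively over the 6 libraries. The 36 Pearson correlations ranged from 0.24 to 0.99 with a median of 0.82, and 14 of them were over 0.9. All pairs share the same 6 libraries of 2 groups and the same equalized distribution, so the correlations are descriptions. Opalin and Mog had the highest correlation of 0.99. Mbp had a correlation of 0.39 with the mean of the other 8 (Spearman's rho 0.35), while Mal had 0.99 (rho 0.94), Mog 0.98 (rho 0.94) and Opalin 0.98 (rho 0.94). For Mag it was 0.83 (rho 0.66) and for Mobp 0.75 (rho 0.77). When MA replicate 2 and Control replicate 2, the libraries farthest from the median, were left out, r was 0.98 for Mal, 0.99 for Cldn11 and Mobp, 0.88 for Mog and 0.86 for Opalin. It was lower for Ermn at 0.71 (from 0.94) and for Cnp at 0.64 (from 0.95). For Mag and Mbp it was 0.20 and 0.22, so that the relation of Mag with the others rests on these 2 libraries, and that of Mbp was weak with or without them. The size of the shared movement also differed between members. Per unit of the mean of the other 8, Opalin moved by 2.39, Mog by 1.29, Cnp by 1.19 and Cldn11 by 1.16, against 0.68 for Mag, 0.35 for Mobp and 0.15 for Mbp. As given above, the value of Mbp is set by its rank on a ladder shared by the libraries, which limits how its slope compares with the others.

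Because MA replicates 2 and 3 lay apart, the comparison of the groups turned on which of them was kept. Without MA replicate 3, Cnp, Cldn11, Mog, Ermn and Opalin reached an unadjusted limma p under 0.05, 5 of 9 members, against 23.3% of all tested genes. Groups that did not overlap were seen in 4 of 9, against 42.9% of all tested genes. The members called at an adjusted p under 0.05 remained 0 of 9, against 1.93% of all tested genes, and the smallest limma adjusted p was 0.0952, for Ermn. The log2 fold changes were then -0.92 for Opalin, -0.54 for Cnp, -0.53 for Mog, -0.51 for Ermn and -0.41 for Cldn11. Without MA replicate 2, 1 of 9 members reached an unadjusted limma p under 0.05, against 7.74% of all tested genes. This member was Mbp, with a log2 fold change of 0.19, and the groups of Mbp alone among the members did not overlap, where 24.7% of all tested genes had such groups. MA replicates 1 and 3 carry the same Mbp value, set by rank, so Mbp had no spread within the MA group in this fit. The log2 fold change without MA replicate 2 was -0.22 for Opalin, -0.19 for Cnp, -0.10 for Mog and 0.01 for Cldn11. Without Control replicate 3, groups that did not overlap were seen in 2 of 9 members, Cnp and Ermn, against 25.4% of all tested genes. Library quality weights lower the influence of MA replicate 3, with a weight of 0.194, and give MA replicate 2 the highest weight, 2.45. With these weights 6 of 9 members reached an unadjusted limma p under 0.05, against 26.3% of all tested genes. The adjusted threshold was reached by 0 of 9, against 4.4%.

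The other genes of mature oligodendrocytes and of myelin were taken from 4 lists by role. Of 41 further markers of compact myelin and mature oligodendrocytes, 31 had a lower mean in the MA libraries, against 52.7% of all tested genes, and the median log2 fold change was -0.15. An unadjusted limma p under 0.05 was reached by 4 of 41, a share near the 10.4% of all tested genes. The median was -0.24 without MA replicate 3, where 18 of 41 reached this p, against 23.3% of all tested genes. In that fit 3 passed the adjusted threshold, against 1.93%. The median was -0.01 without MA replicate 2, where 3 of 41 reached the unadjusted p, against 7.74%. Without Control replicate 2 this count was 1, against 6.84%, and without Control replicate 3 it was 2, against 7.59%. With all 6 libraries, 1 gene passed the adjusted threshold, against 0.263% of all tested genes. This gene was Enpp2 (autotaxin, a secreted enzyme that acts on lysophospholipids), which was 5.12, 5.38 and 5.81 in the control libraries and 7.22, 7.68 and 7.79 in the MA libraries. Every MA library was above every control library, and Enpp2 rose with a log2 fold change of 2.13 ± 0.21 (SE), at a limma adjusted p = 0.0244. The call was lost without any of Control replicates 1, 2 and 3 or MA replicate 2, where the limma adjusted p was 0.0982, 0.0766, 0.0801 and 0.105, and without a filter, where it was 0.0614. The log2 fold change of Enpp2 in the former 4 fits was 1.97, 2.10, 2.31 and 2.07. Enpp2 is also made by the choroid plexus epithelium, whose markers moved in the same direction, as given with the cell type lists. At an unadjusted limma p under 0.05, 3 further genes of the 41 were lower in MA, which were Cmtm5 and, named after their values were seen, Qdpr (-0.29) and Pmp22 (-0.24). The lowest fold changes of this list were those of Cmtm5 (-0.45, limma adjusted p = 0.354) and Pllp, plasmolipin (-0.43, limma adjusted p = 0.487), and Hapln2, a link protein of the node of Ranvier, followed Enpp2 at the top with 0.41.

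Of 15 enzymes listed under myelin lipid synthesis, a list that also holds the phosphoinositide kinase Pip4k2a, 9 had a lower mean in the MA libraries. The median log2 fold change of the 15 was -0.13. An unadjusted limma p under 0.05 was reached by 4 of 15, all lower in MA, and the adjusted threshold by 0. Of all tested genes, 10.4% reached this p and 5.46% did so with a lower mean in MA. The count was 1 of 15 without Control replicate 2 or MA replicate 2, against 6.84% and 7.74% of all tested genes. It was 2 without Control replicate 1, against 6.22%, and 7 without MA replicate 3, against 23.3%. With library quality weights the count was 9, against 26.3%, and 3 passed the adjusted threshold, against 4.4%. Ugt8a, which makes galactosylceramide, was 3.43, 3.42 and 3.25 in the control libraries and 2.93, 2.65 and 3.02 in the MA libraries. Each MA library of Ugt8a was below each control library, with a log2 fold change of -0.50 ± 0.12 (SE), at a limma adjusted p = 0.236. Elovl1 had a log2 fold change of -0.44, and Fa2h and Pip4k2a, named after their values were seen, had -0.39 and -0.22. Elovl7 and Sgms1 were at the other end with 0.24 and 0.22. Of 11 genes of the contact between myelin and axon, 0 reached an unadjusted limma p under 0.05, against 10.4% of all tested genes, and the median was -0.05, from Jam3 and Cntn2 with -0.22 and -0.16 to Cntn1 and Cntnap1 with 0.14 and 0.17. Without MA replicate 3, 5 of the 11 contact genes reached this p, against 23.3% of all tested genes, and the median turned to 0.04. With library quality weights 6 of 11 reached it, against 26.3%. Of 13 transcription factors of the lineage, 0 reached it with all 6 libraries, against 10.4%, and the median was -0.02. The median of these factors was 0.07 without Control replicate 2, 0.02 without MA replicate 2 and -0.06 without MA replicate 3. In these fits 0, 1 and 1 of 13 reached this p, against 6.84%, 7.74% and 23.3% of all tested genes. Tcf7l2 had 0.91 and Nkx2-2 0.30, while Zeb2 and Zfp536 had -0.25 and -0.20. Tcf7l2 is also on the list of thalamic markers, so its values are part of the thalamic sums given below. Tcf7l2 was 3.21 and 3.08 in MA replicates 1 and 2 and 1.68 in MA replicate 3.

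**Figure D4:**
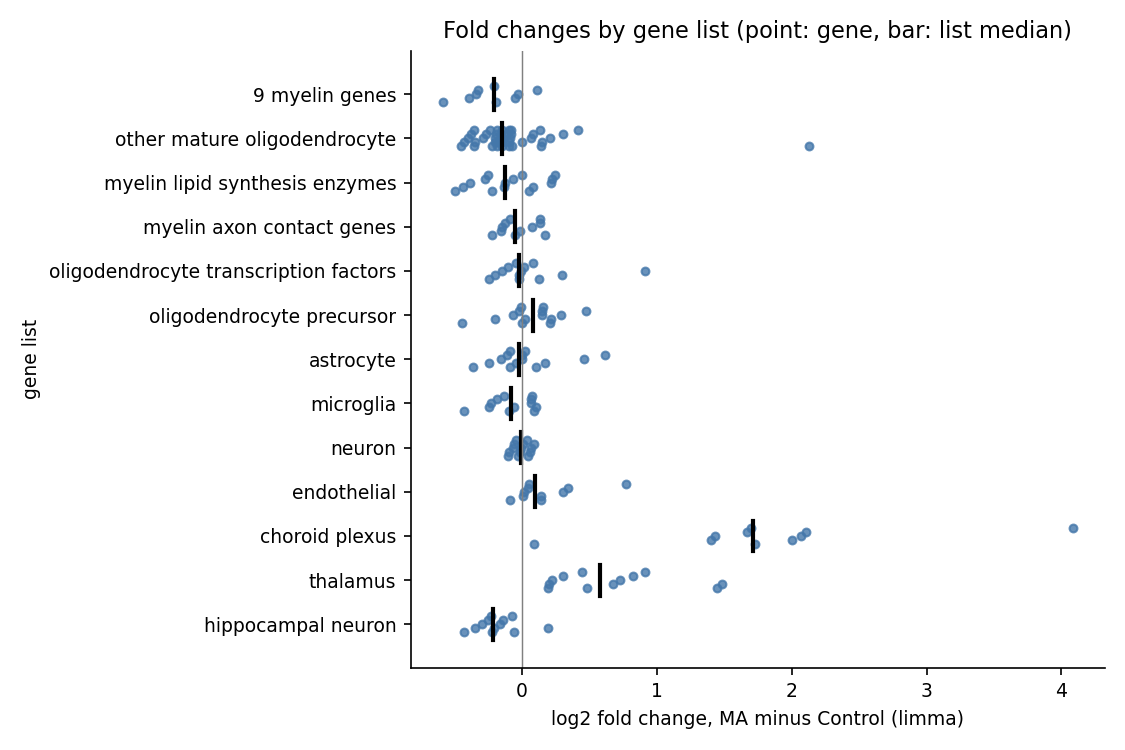
Log2 fold change of MA minus control (x axis) of every tested gene (point) in 13 gene lists, with a black bar at each list's median. With all 6 libraries the medians of the myelin lists lie between -0.20 and -0.02, those of the contact genes and lineage factors turning sign when some libraries are left out, Enpp2 stands alone at 2.13 among the other mature oligodendrocyte genes, and the choroid plexus list centers at 1.71.

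Genes most like the members were ranked by Pearson correlation with the mean of the centered member values over the 6 libraries. The first 10 were Lysmd2, Nthl1, Osgep, Ube2f, Tmem63a, Acrbp, Tmem256, Ube2d1, Sox10 and Car2, with r between 0.974 and 0.994 and rho between 0.943 and 1. Tmem63a, Sox10 and Car2 were in the lists of mature oligodendrocyte genes or lineage factors. Sox10 was 3.88, 3.97 and 3.81 in the control libraries and 3.87, 3.53 and 3.95 in the MA libraries, so that it too was lowest in MA replicate 2. A correlation of at least 0.9 was found for 1.41% of the 13312 other tested genes and for 14 of the 41 other mature oligodendrocyte genes. It was found for 2 of 15 lipid enzymes, 2 of 11 contact genes, 1 of 13 lineage factors and 0 of 14 precursor genes. Of the 41 other mature oligodendrocyte genes, 26 were lowest in MA replicate 2.

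Summed oligodendrocyte precursor genes were lowest in MA replicate 3, not in MA replicate 2. So were the summed neuron and astrocyte markers, at 3277 and 1247 in MA replicate 3. These sums were 3800 to 4085 and 1351 to 1476 in the control libraries. The microglia, endothelial and hippocampal neuron sums were lowest in other libraries. The summed back-transformed level of 14 precursor markers was 79.1 to 82.2 in the control libraries and 96.9, 89.8 and 72.5 in MA replicates 1, 2 and 3. Their median correlation with the member mean was -0.31. None of the 14 passed the adjusted threshold (limma), 2 reached an unadjusted p under 0.05, against 10.4% of all tested genes, and the median log2 fold change was 0.08. Pdgfra, the receptor that marks precursors, had the highest log2 fold change of 0.47 (limma adjusted p = 0.423) and Enpp6, a marker of newly formed oligodendrocytes, the lowest of -0.45 (limma adjusted p = 0.499). The most abundant markers, Ptprz1, Tnr and C1ql1, had 0.00, 0.02 and -0.01.

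Markers of neighboring tissue moved between the libraries as well. The summed level of 10 choroid plexus markers was 68.6 to 424 in the control libraries and 1785 to 5098 in the MA libraries. Of these 10, 9 reached an unadjusted limma p under 0.05, against 10.4% of all tested genes, and 5 the adjusted threshold, against 0.263%. All of these were higher in MA, and none of the 10 was listed at 0. Ttr, the carrier of thyroid hormone made by this epithelium, had a log2 fold change of 4.09 (limma adjusted p = 0.0887), Folr1 2.10 and Kl 1.43, and Tmem72 had the lowest at 0.08. The summed level of 12 thalamic markers was 50.3 to 77.2 in the control libraries, 155 and 157 in MA replicates 1 and 2, and 69.6 in MA replicate 3. None of the 12 passed the adjusted threshold, 3 reached an unadjusted limma p under 0.05, against 10.4% of all tested genes, and the median log2 fold change was 0.58. Tnnt1 had the highest at 1.48 and Plekhg1 the lowest at 0.19, with Calb2, Prkcd and Ntng1, the other thalamic markers of high level, at 1.44, 0.68 and 0.45. The median correlation with the member mean was -0.80 for the thalamic and -0.44 for the choroid plexus markers, over the same 6 libraries. Negative medians were not particular to these tissues. Neuron, endothelial and astrocyte markers had -0.63, -0.57 and -0.51, while microglia and hippocampal neuron markers had -0.06 and 0.19. The part of thalamic or choroid plexus tissue in the levels of the myelin genes was not tested.

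The median log2 fold changes of the other cell type lists were -0.03 for 14 astrocyte, -0.08 for 12 microglia, -0.01 for 14 neuron, 0.10 for 10 endothelial and -0.22 for 12 hippocampal neuron markers, with 0 genes past the adjusted threshold (limma) in each. An unadjusted p under 0.05 was reached by 2, 0, 0, 2 and 3 of their genes, against 10.4% of all tested genes. A lower mean in the MA libraries was seen in 9, 7, 8, 1 and 11 of their genes, against 52.7% of all tested genes. The 3 hippocampal neuron genes that reached this p were all lower in MA. Of 7 peripheral myelin markers, 5 were in the table and 0 passed the filter on low values.

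**Figure D5:**
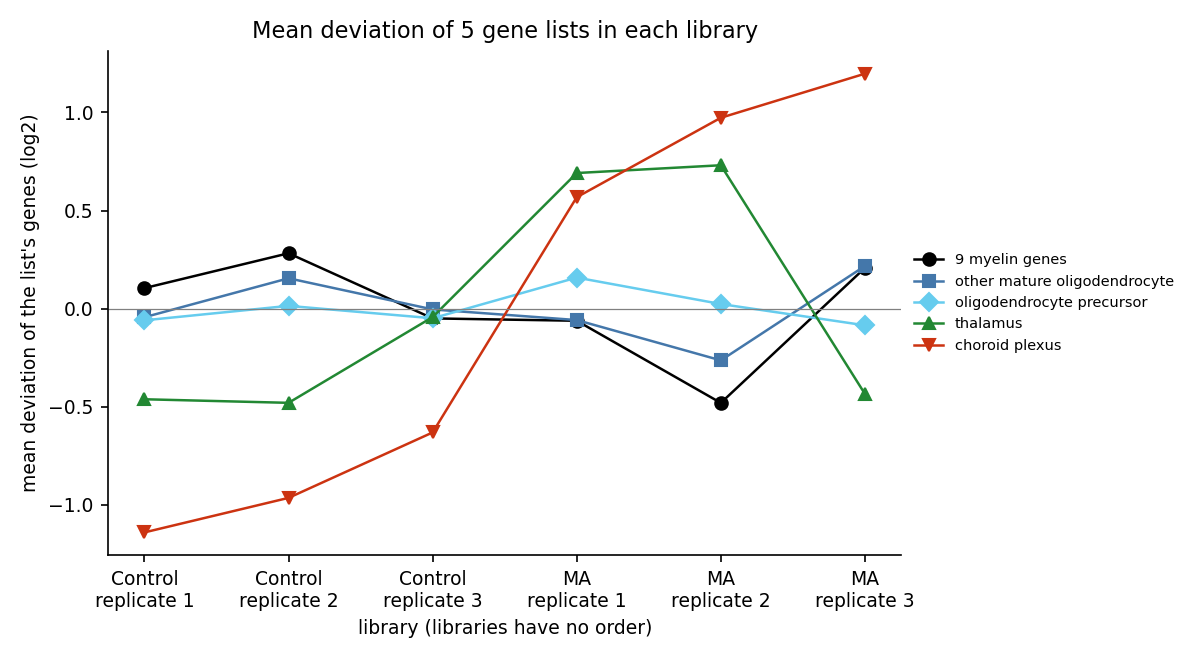
Mean deviation of the genes of 5 lists from their own 6-library means on the log2 scale (y axis) in each library (x axis). The 9 myelin genes and the other mature oligodendrocyte genes share their lowest point in MA replicate 2, at -0.48 and -0.26. There the thalamic list has its highest point of 0.73. The thalamic list is at 0.69 in MA replicate 1, where the 9 myelin genes are at -0.06.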

How the data were processed

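Hippocampal RNA of control and MA-treated mice was sequenced in 3 libraries per group. The labels and the study's methods name different RNA and library kits. According to the study's methods, Hisat2 aligned the reads, featureCounts assigned them to genes and FPKM values followed. The submitters' processing notes name Bowtie 0.12.2 and the builds mm8 and mm9. The authors deposited 1 table, named RPKM, whose values lie on a log2 scale with an inferred offset of 1. The log transform and the common distribution are not described. RPKM divides by gene length and depth, and a common distribution makes top values depend on rank. Depth is unknown.

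A gene entered the test when 3 or more libraries reached 0.5 after back-transformation. Testing used limma 3.58.1 in R 4.3.3 (lmFit, eBayes with trend), MA against control, without covariates, on the deposited values. Benjamini-Hochberg adjustment ran over all 13321 genes. The code was tested on simulated data. The members and all lists were chosen with earlier results of these data known. Named genes were the 9 members, from each related list the called genes and the 2 highest and 2 lowest fold changes, for the precursor, choroid plexus and thalamic lists the 3 most abundant genes and both extremes, and the 10 genes most like the members. The text names the genes of the other marker lists only by count, apart from 3 neuronal ones. The replicate numbers come from the labels, which name no pairing. Nothing says that libraries came from separate mice, so p-values measure the spread between these libraries, which may be technical. Alternatives were other pseudocounts, filters, scalings, variance models, weights, a replicate block and leaving out each library. Behavioral, histological and cell culture data were not analysed here.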

Additional observations from a re-analysis of the deposited data

How the results depend on the processing

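The number of members past the adjusted threshold was 0 under all 15 alternatives, so no call was gained or lost. At an unadjusted limma p under 0.05 the count of members was 6 with library quality weights, against 26.3% of all tested genes. These weights were 0.194 for MA replicate 3 and 2.45, the highest, for MA replicate 2. The count ran from 0 to 5 when each library was left out, the 5 without MA replicate 3, against 23.3%. With weights the adjusted threshold was passed by 4.4% of all tested genes. The exact permutation test cannot go below 0.1. The members with groups that do not overlap ranged from 0 to 4 with each library left out, being 4 without MA replicate 3, against 42.9% of all tested genes, and 2 (Cnp and Ermn) without Control replicate 3, where 25.4% of all tested genes had such groups. The median log2 fold change of the members stayed between -0.41 and -0.03 in these fits and was -0.48 with weights. The sign turned for Mag, between -0.16 and 0.11, for Mobp, between -0.12 and 0.025, and for Cldn11, between -0.41 and 0.0055, when libraries were left out.

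Over the 80 tested genes of the 4 related lists, 1 passed the adjusted and 8 the unadjusted threshold, against 0.263% and 10.4% of all tested genes. The counts were 9 and 42 with weights, against 4.4% and 26.3%, 0 past the adjusted threshold with no filter, and 0 to 3 and 2 to 31 with each library left out, the highest of each without MA replicate 3, against 1.93% and 23.3%. In the fit with a replicate block, 3 passed the unadjusted threshold, against 6.32% of all tested genes. They were 2 of the 41 other mature markers and 1 of the 15 lipid enzymes. The adjusted count was 1, against 0.113%. Centered on their groups, libraries that carry the same number had correlations of -0.197, -0.242 and -0.337. For libraries of unlike number they ran from -0.149 to 0.333. Deviations from the mean of 3 libraries depend on each other, so these correlations cannot decide whether the numbers pair the mice. The cause of these shifts was not tested. The median correlation between members stayed between 0.75 and 0.90 and the mean deviation of MA replicate 2 between -0.49 and -0.42 with each library left out.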
